A study of Mus musculus with 23 samples.

Results

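A set of 7 developmental regulators was followed across clonal fat cell precursor lines: Wt1, Bnc1, Gata4, Gata6, Tcf21, Nr2f1 and Nr2f2. They were chosen by symbol as known transcription factors of mesothelium and visceral mesoderm, with earlier results of these data known. They make up 7 of the 18193 genes that the array measured under a single symbol, and 16 of its 45101 probe sets. Where a gene had several probe sets, the one with the highest mean over all lines gave its value, and the others are described beside it.

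Mesothelium is the flat cell layer that lines the body cavities and covers the organs and fat depots inside them, and it arises from lateral plate mesoderm. The zinc finger factor Wt1 marks this layer in the embryo and in adult visceral fat, and is largely missing from subcutaneous fat. Gata4 and Gata6, zinc finger factors of the heart, gut and coelomic lining, Bnc1, the zinc finger protein basonuclin of epithelia and germ cells, and Tcf21, a basic helix-loop-helix factor of visceral mesenchyme, act in neighbouring programmes. Nr2f1 and Nr2f2, the COUP transcription factors, are orphan nuclear receptors of embryonic mesenchyme, and Nr2f2 also acts in veins and in fat cell differentiation.

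The study made clonal lines from the stromal vascular fraction, the part of fat tissue left once the fat cells are removed. The donor was 1 male Immortomouse of 8 weeks. This mouse carries a viral antigen that is stable at low temperature and is induced by interferon gamma, which keeps its cells dividing in culture. After 2 passages, 190 cells were sorted without gating into wells of their own, and lines were kept at 33 °C in interferon gamma (10 units/mL). RNA of 23 lines was put on 1 Affymetrix array each.

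The 4 groups are labels that the submitters gave after clustering the lines by expression. Type 1 held 3 lines, all from perigonadal fat (PGF, a visceral depot). The group named Other, which holds lines given no numbered type, had 3 PGF and 4 subcutaneous (SCF) lines. Type 2 had 1 PGF and 4 SCF lines, and Type 3 had 4 of each, so that 11 lines were PGF and 12 SCF. Since all lines share genotype, mouse and culture, a p-value measures the spread between clones of 1 animal. Since the types were formed from the same expression data, and Wt1 is a marker that the study itself took from these lines, the p-values of type comparisons are descriptive and give no independent support for the types. Type 1 and depot cannot be fully told apart, because no Type 1 line was SCF. Lines are named by group and number, such as Other 6, and the numbers carry no other meaning.

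Levels are given as log2 signal, on a scale that ran from 2.03 to 14.46 with a median of 5.13 and a lower quartile of 3.72. Array medians lay between 5.09 and 5.16. Among signs of RNA quality, the actin signal at the 3′ end exceeded that at the 5′ end by 1.58 in Type_1 1, against 0.53 to 1.00 in every other line. Levels carry the SD over lines, and differences carry the SE. Adjusted p-values come from limma, fitted over all 18193 genes, with a threshold of 0.05.

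Promoter sequence was examined for 4 of the 7 genes. None was on hand for Wt1 and Gata4, and that of Gata6 was left out. Of the 4 examined, 2 are printed, those of Bnc1 and Nr2f2. They are shown because both genes passed the threshold in Type 1 lines, in opposite directions, and because they lie on the same chromosome and differ widely in base composition. The call of Nr2f2 rested on the line Type_1 1 and did not pass without it (adjusted p = 0.26, limma). Each is the RefSeq window of 250 bases before and 50 after the transcript start in build GRCm38.p6, read 5′ to 3′ on the gene's strand, with CpG dinucleotides in capitals. Bnc1 lies on the minus strand at chr7:81992250-81992549, and Nr2f2 on the minus strand at chr7:70366697-70366996.
Bnc1: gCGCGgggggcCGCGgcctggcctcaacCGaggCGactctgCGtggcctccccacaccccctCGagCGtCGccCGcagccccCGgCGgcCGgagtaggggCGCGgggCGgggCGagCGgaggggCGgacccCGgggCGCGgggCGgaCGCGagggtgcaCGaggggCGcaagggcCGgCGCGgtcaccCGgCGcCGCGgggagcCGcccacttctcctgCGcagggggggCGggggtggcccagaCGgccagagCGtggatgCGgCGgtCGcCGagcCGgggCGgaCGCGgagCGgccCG
Nr2f2: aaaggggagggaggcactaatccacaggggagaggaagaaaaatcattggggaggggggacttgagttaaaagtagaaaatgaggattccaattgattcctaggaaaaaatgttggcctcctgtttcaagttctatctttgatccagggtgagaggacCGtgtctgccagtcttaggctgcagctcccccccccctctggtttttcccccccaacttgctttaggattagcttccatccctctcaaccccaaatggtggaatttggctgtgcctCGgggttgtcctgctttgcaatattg
The Bnc1 window was 83.3% G and C and held 50 CpG dinucleotides, while that of Nr2f2 was 49.7% G and C and held 2. Over all 32851 RefSeq windows of this length the median was 52.7% G and C and 7 CpG dinucleotides. Only 0.855% of windows held 50 or more, and 23.3% held 2 or fewer. Both strands were searched for 4 motifs. The GATA factor motif AGATAA was in 11.2% of all windows. A nuclear receptor half-site, written AGGTCA, was in 16.3%. The motif of early growth response and Wt1 zinc fingers, GCGTGGGNG, was in 1.90%. The E-box of helix-loop-helix factors, CANNTG, was in 72.3%. The Bnc1 window held none of the 4, and the Nr2f2 window held 2 copies of CANNTG and none of the other 3. No motif overlapped another in these 2 windows. Of the windows not printed, that of Tcf21 held 1 AGATAA and none of the other 3 motifs. Nr2f1 had 1 window with 23 CpG dinucleotides and none of the 4 motifs, and another with 4 CpG dinucleotides and 3 copies of CANNTG. Base composition and motifs thus depend on the transcript start that is listed.

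The first comparison was between Type 1 lines and all others. Wt1, Bnc1 and Gata6 stood far higher in all 3 Type 1 lines than in any other line, while Nr2f2 was about one log2 unit lower. Gata4, Nr2f1 and Tcf21 did not pass the threshold. Against the mean of the other groups, 3 of the 7 genes were higher and 1 was lower, where 13.4% of all genes were higher and 10.5% lower. The median difference of the 7 genes was 0.48, against -0.01 over all genes. As the 7 genes were chosen with earlier results of these data known, these shares and medians are a description only.

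**Figure D1:**
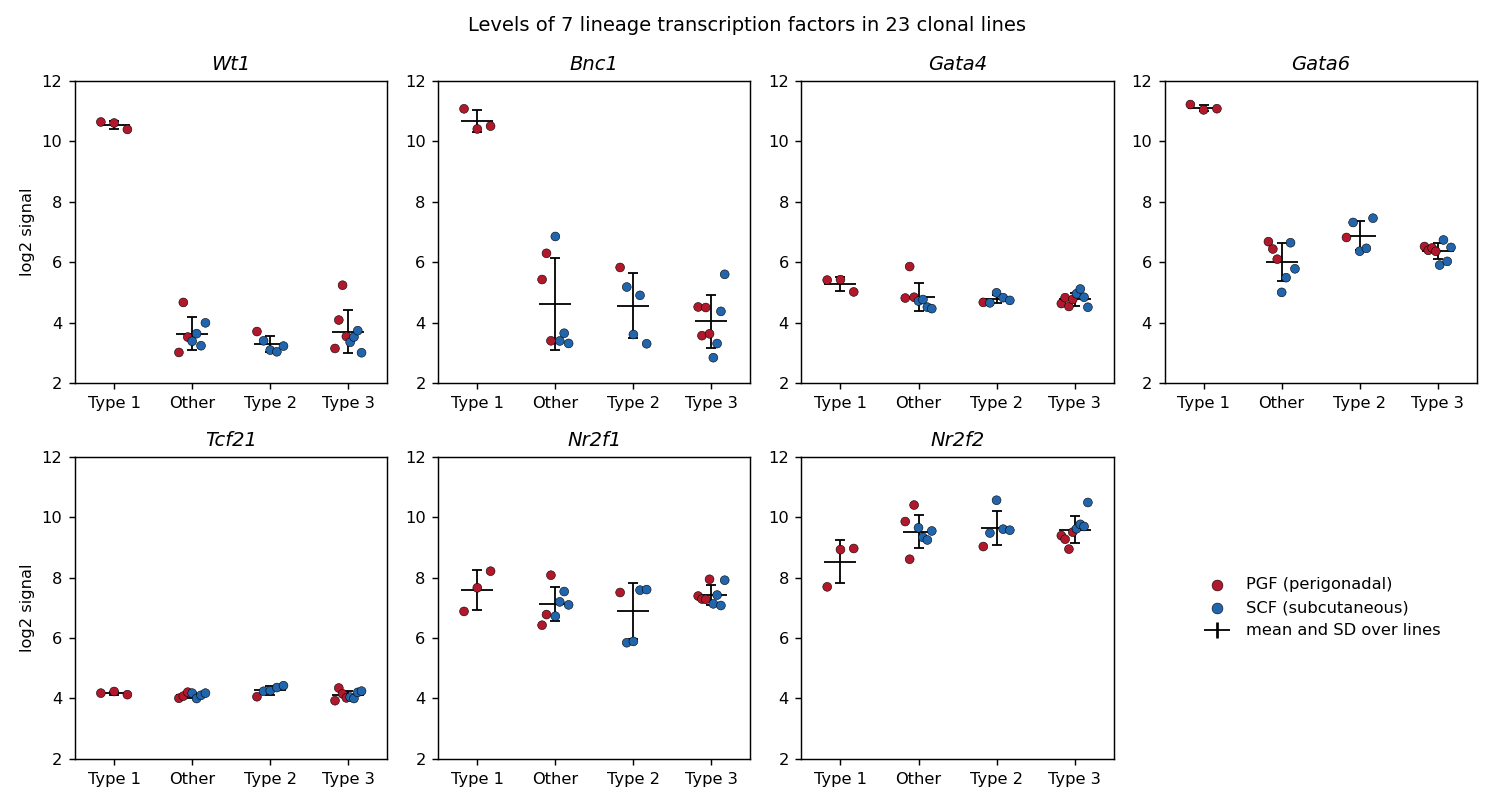
Log2 signal of the 7 genes (vertical axes) in each line, by group (Type 1, Other, Type 2, Type 3), with PGF lines in red, SCF lines in blue, and bars at the mean and SD over lines. The 3 Type 1 lines sit above 10 for Wt1, Bnc1 and Gata6, apart from every other line, while Gata4, Tcf21 and Nr2f1 overlap between groups.

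Wt1, the zinc finger factor of mesothelium, gave log2 signals of 10.65, 10.61 and 10.40 in the 3 Type 1 lines. In Other lines it ran from 3.02 to 4.67 with a median of 3.53, in Type 2 lines it was 3.40, 3.10, 3.04, 3.23 and 3.71, and in Type 3 lines it ran from 3.01 to 5.24 with a median of 3.54. The groups did not overlap, and the signal outside Type 1 lay below the table's median in 19 of 20 lines. The difference from the mean of the other groups was 7.00 ± 0.32 (adjusted p = 1.52e-13, limma). No detection calls were used, and the low signals of Wt1 and Bnc1 outside Type 1 were not shown to lie above background, so their differences are of signal and give no fold in RNA. In a bulk extract, fewer cells that use a gene and less RNA per cell cannot be told apart, even within a clone. Wt1 was read by 1 probe set, whose type of name marks probes that match more than 1 transcript.

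The line outside Type 1 with the highest Wt1 signal was Type_3 7, a PGF line at 5.24, and the next was Other 6, also PGF, at 4.67. The order of group means was Type 1 (10.55 ± 0.13), Type 3 (3.71 ± 0.71), Other (3.64 ± 0.55) and Type 2 (3.30 ± 0.27). Only the step from Type 1 to the rest exceeded the spread over lines.

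Bnc1, basonuclin, gave 11.08, 10.41 and 10.51 in Type 1 lines. In Other lines it ran from 3.32 to 6.86 with a median of 3.65, in Type 2 lines it was 5.18, 3.61, 4.91, 3.31 and 5.83, and in Type 3 lines it ran from 2.85 to 5.60 with a median of 4.01. All 3 Type 1 lines lay above all 20 others, and the difference was 6.26 ± 0.66 (adjusted p = 2.11e-07, limma). Unlike Wt1, Bnc1 varied widely outside Type 1: its SD over those 20 lines was 1.16, against 0.57 for Wt1, and it exceeded the table's median in 6 of them. The highest were Other 1, an SCF line at 6.86, and Other 6, a PGF line at 6.30. Group means outside Type 1 were 4.62 ± 1.53 in Other, 4.57 ± 1.07 in Type 2 and 4.05 ± 0.87 in Type 3, which did not differ beyond their spread.

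Gata6, which acts in gut, heart and peritoneal lineages, gave 11.22, 11.05 and 11.08 in Type 1 lines, the tightest group of the 3 genes with an SD of 0.09. In Other lines it ran from 5.01 to 6.68 with a median of 6.10, in Type 2 lines it was 7.32, 6.37, 6.46, 7.46 and 6.82, and in Type 3 lines it ran from 5.91 to 6.74 with a median of 6.44. Its Type 1 values again did not overlap with any other line, and the difference was 4.69 ± 0.27, or 25.8-fold in signal (adjusted p = 7.48e-12, limma). Over the whole table, 1033 genes, or 5.68%, had every Type 1 line above every other line. Outside Type 1, 19 of 20 lines were above the table's median for Gata6, which is no detection call. The 2 other Gata6 probe sets averaged 5.37 and 3.28 in those 20 lines. The group order below Type 1 was Type 2 (6.89 ± 0.49), Type 3 (6.37 ± 0.27) and Other (6.02 ± 0.63).

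Gata4, the close relative of Gata6, did not pass the threshold. Its signals in Type 1 lines were 5.41, 5.43 and 5.02. In Other lines they ran from 4.47 to 5.86 with a median of 4.77, in Type 2 lines they were 4.66, 4.99, 4.83, 4.74 and 4.68, and in Type 3 lines they ran from 4.51 to 5.12 with a median of 4.80. The highest Gata4 value of all 23 lines was in Other 6, above every Type 1 line, and the groups overlapped. The difference of Type 1 from the mean of the other groups was 0.48 ± 0.18, with an interval from 0.11 to 0.86, and did not pass (adjusted p = 0.0587, limma). Without Other 6 it was 0.54 and passed (adjusted p = 0.00128, limma), while the second Gata4 probe set gave -0.13 (adjusted p = 0.367, limma). Over the refits that left out 1 line each, the adjusted p of Gata4 ran from 0.00128 to 0.237.

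Nr2f2, the nuclear receptor of mesenchyme and veins, was the only member that was lower. It gave 7.69, 8.93 and 8.96 in Type 1 lines. In Other lines it ran from 8.61 to 10.40 with a median of 9.54, in Type 2 lines it was 9.48, 10.56, 9.60, 9.57 and 9.03, and in Type 3 lines it ran from 8.94 to 10.49 with a median of 9.56. Type_1 1 lay below every other line, and the other Type 1 lines overlapped the lowest of the rest. The difference was -1.05 ± 0.32, or 2.08-fold lower (adjusted p = 0.0174, limma). This call rested on Type_1 1, the line with the high actin 3′ to 5′ difference: without it the difference was -0.64 (adjusted p = 0.26, limma). With depot in the model the value was -0.84 (adjusted p = 0.0915, limma), and the part of RNA integrity in it was not tested.

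Nr2f1, the close relative of Nr2f2, gave 6.88, 7.66 and 8.21 in Type 1 lines. It ran from 6.42 to 8.08 in Other lines, from 5.85 to 7.60 in Type 2 lines and from 7.08 to 7.94 in Type 3 lines. Type 2 fell into a pair of low values, 5.85 and 5.89 in Type_2 1 and Type_2 2, and 3 values between 7.51 and 7.60. The difference of Type 1 from the mean of the other groups was 0.44 ± 0.35, with an interval from -0.29 to 1.17 (adjusted p = 0.417, limma), so neither no change nor a change of one log2 unit was outside it.

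Tcf21, which marks visceral mesenchyme, lay between 3.93 and 4.42 in all 23 lines and never reached the table's median. Its second probe set lay lower still, between 2.80 and 3.43. Type 1 averaged 4.18 ± 0.05, Other 4.11 ± 0.08, Type 2 4.27 ± 0.14 and Type 3 4.12 ± 0.14, and the difference of Type 1 was 0.01 with an interval from -0.15 to 0.18 (adjusted p = 0.928, limma). No level of Tcf21 that separated one group of lines from another was detectable with these probes.

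**Figure D2:**
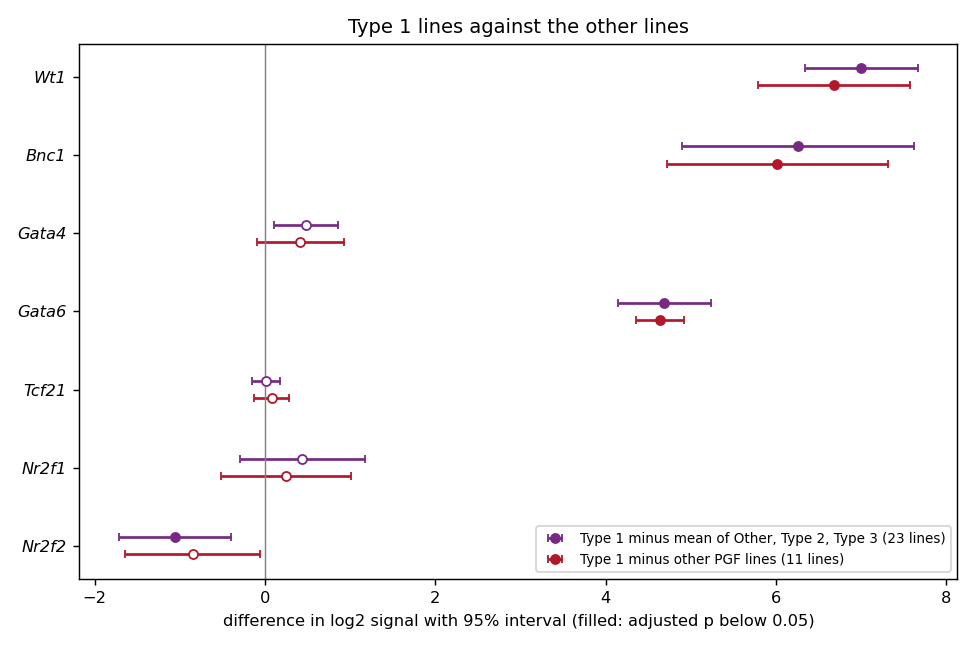
Difference in log2 signal (horizontal axis) of Type 1 lines from the mean of the other groups (purple, 23 lines) and from the other PGF lines (red, 11 lines), with 95% intervals and filled points where the adjusted p was below 0.05. Wt1, Bnc1 and Gata6 lie between 4.64 and 7.00 in both fits, and Nr2f2 is filled only in the fit over 23 lines.

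The probe sets of a gene gave the same picture for Gata6 and a weaker one for Nr2f2. The other Gata6 probe sets differed by 3.75 (adjusted p = 7.83e-14, limma over all probe sets) and by 0.67 (adjusted p = 0.000136), the last on a low signal of 3.96 ± 0.39 in Type 1 lines against means between 3.24 and 3.38 elsewhere. All 5 further Nr2f2 probe sets had negative differences, from -0.56 to -0.29, and 1 of them passed (-0.32, adjusted p = 0.0164, limma). The mean of the Nr2f2 probe sets differed by -0.50 and did not pass (adjusted p = 0.122, limma). The second Tcf21 probe set differed by 0.06 (adjusted p = 0.708, limma).

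**Figure D3:**
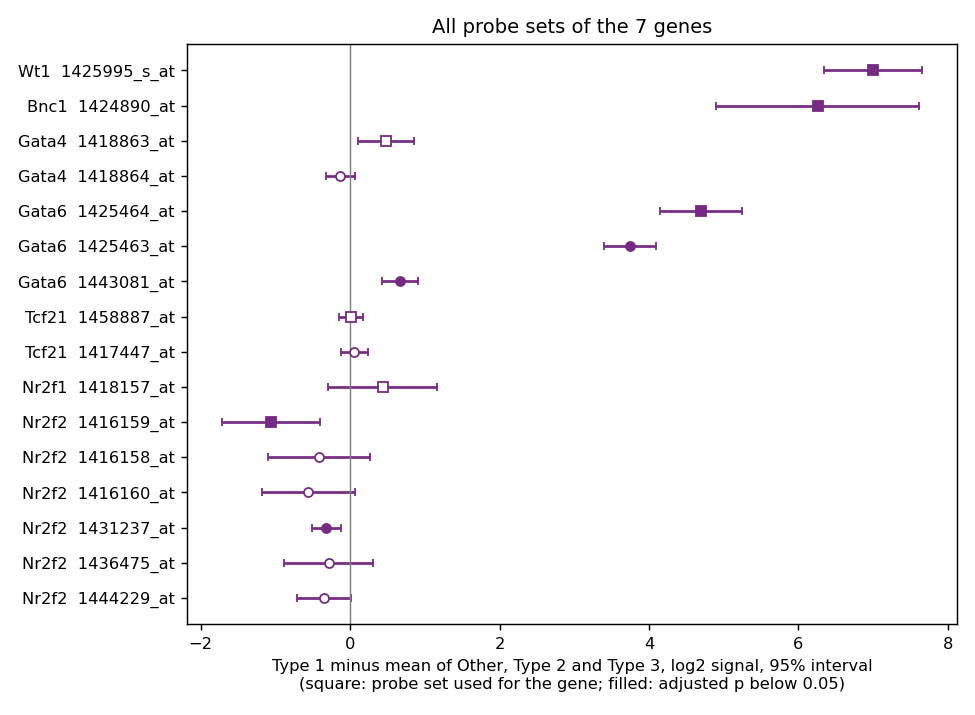
Difference of Type 1 from the mean of the other groups in log2 signal (horizontal axis) for all 16 probe sets of the 7 genes, with 95% intervals, squares for the probe set used for the gene and filled points where the adjusted p was below 0.05. The 6 Nr2f2 probe sets all lie below 0 and the 3 Gata6 probe sets all above it, while the 2 Gata4 probe sets lie on opposite sides.

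Set against each other group in turn, Type 1 kept the same 3 genes higher each time. Against Other, 3 of the 7 genes passed (19.5% of all genes did in either direction), with Wt1 higher by 6.91, Bnc1 by 6.05 and Gata6 by 5.09. Against Type 2, 4 of 7 passed (17.3% of all genes), with differences of 7.26, 6.10 and 4.23 in the same order, and Nr2f2 at -1.12 (adjusted p = 0.0404, limma). Against Type 3, 4 of 7 passed (24.1% of all genes), with 6.84, 6.62 and 4.75, and Nr2f2 at -1.05 (adjusted p = 0.0288, limma). Nr2f2 against Other was -0.99 and did not pass (adjusted p = 0.0512, limma). These comparisons share the Type 1 lines.

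Since every Type 1 line was perigonadal, the Type 1 lines were also set against the 8 other PGF lines alone. There 3 of the 7 genes were higher and 0 lower, where 8.66% of all genes were higher and 6.43% lower, and the median difference was 0.42 for the 7 genes and -0.02 for all genes. At an unadjusted p below 0.05, 4 of the 7 genes and 5262 of all genes passed in this fit. Wt1 averaged 10.55 ± 0.13 in Type 1 lines and 3.87 ± 0.76 in the other PGF lines, a difference of 6.68 ± 0.41 (adjusted p = 9.45e-07, limma). Bnc1 was higher by 6.02 ± 0.59 (adjusted p = 4.26e-05, limma) and Gata6 by 4.64 ± 0.13 (adjusted p = 1.89e-09, limma). With depot held the same, these 3 differences were thus about as large as over all lines. Nr2f2 differed by -0.85 ± 0.36 (adjusted p = 0.147, limma), or by -0.43 without Type_1 1 (adjusted p = 0.554, limma). Gata4 differed by 0.42 ± 0.23 (adjusted p = 0.275, limma), and without Other 6 by 0.56, which passed (adjusted p = 0.00607, limma).

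Among the lines outside Type 1, no member passed the threshold between groups. In Type 2 minus Type 3, 0 of the 7 genes passed in limma, where 0.0495% of all genes, 9 in number, did. At an unadjusted p below 0.05, 1 of the 7 genes and 2446 of all genes passed. That gene was Gata6, higher in Type 2 by 0.52 ± 0.24 (adjusted p = 0.353, limma). Nr2f1 was at -0.55 (adjusted p = 0.491), Bnc1 at 0.52 (adjusted p = 0.784) and Wt1 at -0.41 (adjusted p = 0.583) in the same fit.

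In Other minus the mean of Types 2 and 3, 0 of the 7 genes and 0% of all genes passed in limma, and 1 of the 7 and 1495 of all genes had an unadjusted p below 0.05. Gata6 again had the smallest p, at -0.60 ± 0.20 (adjusted p = 0.391, limma). Its lowest value of all lines, 5.01, was in Other 1, an SCF line. In Other minus Type 2 alone it was -0.86 ± 0.25 (adjusted p = 0.187, limma). The 6 other genes had adjusted p-values from 0.776 to 0.987 against the mean of Types 2 and 3.

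The next comparison was between depots, as these factors are known for marking visceral fat. With group in the model, PGF minus SCF passed in 0 of the 7 genes and in 0% of all genes by limma, and at an unadjusted p below 0.05 in 0 of the 7 and 1466 of all genes. Outside Type 1, Wt1 averaged 3.87 ± 0.76 in PGF lines (n = 8) and 3.39 ± 0.30 in SCF lines (n = 12), and the difference in the model was 0.42 ± 0.23 (adjusted p = 0.673, limma). The 4 highest Wt1 values outside Type 1 were 5.24, 4.67, 4.09 and 4.00, of which the first 3 were in PGF lines and the last in an SCF line. Most PGF lines outside Type 1 thus had Wt1 signals in the range of the SCF lines.

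Bnc1 averaged 4.65 ± 1.10 in PGF and 4.20 ± 1.21 in SCF lines outside Type 1, with a difference of 0.57 ± 0.49 in the model (adjusted p = 0.793, limma). Gata6 averaged 6.48 ± 0.22 in PGF and 6.31 ± 0.71 in SCF lines, with a difference of 0.31 ± 0.19 (adjusted p = 0.706, limma). The SCF lines held both the lowest and the highest Gata6 value outside Type 1, 5.01 and 7.46. Nr2f2 averaged 9.37 ± 0.56 in PGF and 9.71 ± 0.41 in SCF lines, with a difference of -0.34 ± 0.23 (adjusted p = 0.728, limma). Gata4 differed by 0.12, Nr2f1 by 0.16 and Tcf21 by -0.06, with adjusted p-values of 0.868, 0.917 and 0.837 in limma.

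Leaving the group out of the model brought the Type 1 lines into the depot difference. Wt1 then differed by 2.30 ± 0.88, Bnc1 by 2.09 and Gata6 by 1.43, with adjusted p-values of 0.372, 0.399 and 0.407 in limma, so none passed in that form either. In this form the 3 Type 1 lines, with the high signals of these genes, count among the PGF lines.

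Within single groups the depots gave mixed signs. Within Type 3, with 4 lines a depot, 0 of 7 genes and 0% of all genes passed in limma, with 638 of all genes and 0 of the 7 at an unadjusted p below 0.05. There Wt1 was at 0.60 and Nr2f2 at -0.61. Within Other, with 3 PGF and 4 SCF lines, 0 of 7 genes passed where 0.104% of all genes did, and 2 of the 7 and 2312 of all genes had an unadjusted p below 0.05. They were Gata4 at 0.56 ± 0.20 (adjusted p = 0.253, limma) and Gata6 at 0.68 (adjusted p = 0.374, limma). The depot difference of Gata4 was -0.16 in Type 3 and 0.56 in Other, and the difference between these did not pass (-0.72 ± 0.27, adjusted p = 0.516, limma).

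**Figure D4:**
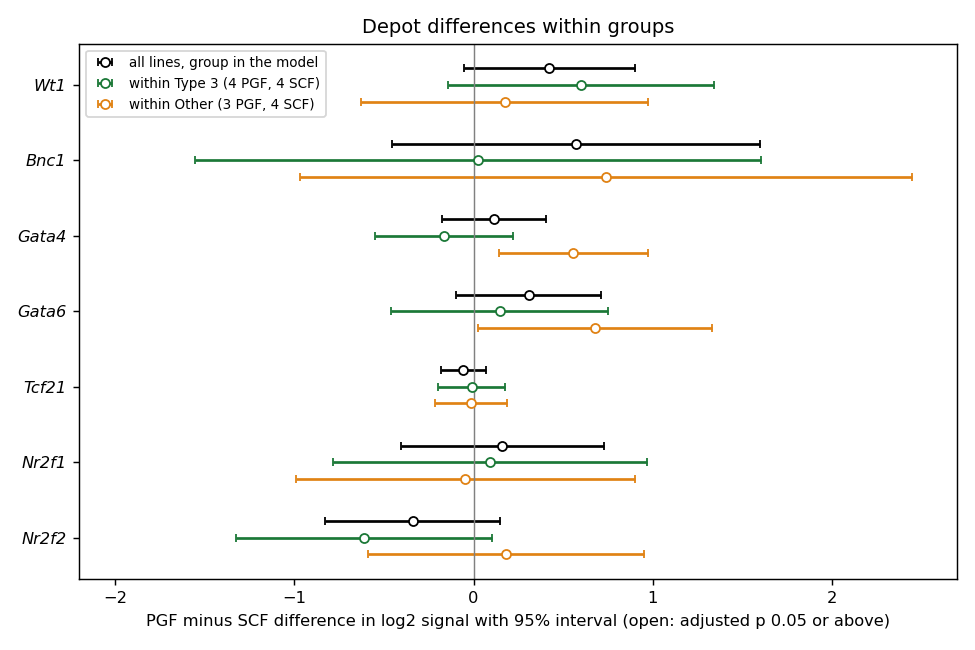
PGF minus SCF difference in log2 signal (horizontal axis) for the 7 genes, over all lines with group in the model (black), within Type 3 (green, 4 PGF and 4 SCF lines) and within Other (orange, 3 PGF and 4 SCF lines), with 95% intervals. Every point is open, as no adjusted p was below 0.05, and the intervals of Bnc1 are the widest.

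The labels also score each line from 1 to 4 for differentiation and for acidification of the medium, without saying which way the acidification score runs. All 3 Type 1 lines had a differentiation score of 2. With group in the model, the slope on the differentiation score passed in 0 of 7 genes and 0% of all genes by limma, and at an unadjusted p below 0.05 in 0 of 7 and 1143 of all genes. Its largest value was that of Bnc1, 0.50 ± 0.29 per point (adjusted p = 0.869, limma), and Wt1 was at -0.20 (adjusted p = 0.907). The slope on the acidification score passed in 0 of 7 genes and 0% of all genes, and at an unadjusted p below 0.05 in 2 of 7 and 1881 of all genes by limma. These 2 were Gata4 at 0.11 ± 0.05 (adjusted p = 0.449) and Nr2f1 at -0.21 ± 0.10 (adjusted p = 0.467) per point. Without Other 6 the Gata4 slope was 0.031.

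Over the 23 lines, which share 1 donor and fall into Type 1 and the rest, Pearson's r was 0.92 for Wt1 and Gata6 and 0.88 for Wt1 and Bnc1. Over the 20 lines outside Type 1 these were -0.11 and 0.06. Of the 21 pairs of members, the one farthest from 0 in those 20 lines was Wt1 with Nr2f2, at -0.64 (-0.67 over 23 lines), and the other 20 lay between -0.26 and 0.26. The lines with the highest Wt1 there, Type_3 7 and Other 6, ranked 19 and 20 of 20 in Nr2f2. The median of Wt1 in the 20 lines was 3.47, below the table's lower quartile of 3.72. The r without Type_3 7 and Other 6 was not worked out. Other 6 was the line that stood out in several members, with the highest Gata4, the second highest Wt1 (4.67) and Bnc1 (6.30) and the lowest Nr2f2 (8.61) outside Type 1. It did not stand out in the rest, at rank 11 of 20 from the top in Gata6 (6.44), 13 in Tcf21 and 16 in Nr2f1.

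The genes most like each member were taken by Pearson's r over the lines, as a description. Over 23 lines these were Myrf (0.984), Lrrn4 (0.982) and Bmp4 (0.981) for Wt1, Cdh3 (0.957), Col4a6 (0.957) and Cyp2s1 (0.956) for Gata6, and Usp54 (0.928), Ppp1r13b (0.923) and F11r (0.921) for Bnc1. Gata4 was most like Hoxd10 (0.838), Dnaja2 (0.82) and Tlr2 (0.798), and Nr2f2 most like Myzap (0.845), Fam171a1 (0.791) and Capn12 (0.78). The values were lower for Tcf21, with Pea15a (0.736), Cldn22 (0.73) and F2rl2 (0.676), and for Nr2f1, with Wnk3 (0.673), Spink8 (0.652) and Bpnt2 (0.651). Over the 20 lines outside Type 1 the genes were Ccdc149 (0.77), Cxcl3 (0.762) and Pknox2 (0.761) for Wt1, Galnt7 (0.796), Pcbp1 (0.785) and Zcchc4 (0.758) for Bnc1, and Hmces (0.792), Phykpl (0.771) and Krtap19-3 (0.767) for Gata6. They were Spata33 (0.862), Hoxd10 (0.86) and Ccl4 (0.85) for Gata4, Adamts12 (0.803), Pea15a (0.762) and Cldn22 (0.744) for Tcf21, and Muc15 (0.71), Miat (0.698) and Dennd5b (0.691) for Nr2f1. For Nr2f2 they were Trp53bp2 (0.8), Pdcd2 (0.777) and Mbnl1 (0.766). Of the genes first over 23 lines, Myrf kept an r of 0.668 with Wt1 in the 20 lines, Usp54 one of 0.662 with Bnc1, Cdh3 one of 0.327 with Gata6, and Hoxd10 one of 0.86 with Gata4. All of these genes were picked as the highest among all named genes on the array, and such picking alone gives high values over so few lines. For Gata4 in the 20 lines, Other 6 at 5.86 stood apart from the next value, 5.12 in Type_3 2, and r without Other 6 was not worked out.

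The other regulators of lateral and visceral mesoderm went both ways in Type 1. Of 26 measured of 29 listed, 5 were higher and 5 lower, with a median difference of -0.22, where 13.4% of all genes were higher and 10.5% lower. Hand2, a helix-loop-helix factor of heart and lateral plate mesoderm, averaged 9.01 ± 1.04 in Type 1, 4.21 ± 0.20 in Other, 4.67 ± 1.15 in Type 2 and 4.00 ± 0.10 in Type 3, and it was higher by 4.72 ± 0.37 (adjusted p = 2.36e-09, limma). Osr1, a zinc finger factor of intermediate and lateral mesoderm, averaged 5.11 ± 0.60 in Type 1, 9.76 ± 0.49 in Other, 8.86 ± 0.23 in Type 2 and 9.83 ± 0.64 in Type 3, with Type 1 at a difference of -4.37 ± 0.31 (adjusted p = 3.49e-10, limma). Hand2 was thus high and Osr1 low in the same 3 lines. Foxc1, a forkhead factor of paraxial and other mesoderm, was at -2.54 (adjusted p = 7.37e-05), and the homeobox factor Meis2 at 1.85 (adjusted p = 9.48e-07, limma).

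Of 19 relatives and partners of the members, 3 were higher and 2 lower in Type 1, 14 did not pass, and the median difference was -0.04. These shares are near those of all genes (13.4% higher, 10.5% lower). Both Fog cofactors, which bind GATA factors, were higher: Zfpm1 averaged 8.29 ± 0.56 in Type 1, 6.70 ± 0.51 in Other, 6.80 ± 0.11 in Type 2 and 6.88 ± 0.12 in Type 3 (1.49 ± 0.21, adjusted p = 1.11e-05, limma), and Zfpm2 was higher by 1.22 (adjusted p = 3.13e-05, limma). Tcf23, a helix-loop-helix relative of Tcf21, was higher by 1.05 (adjusted p = 3.55e-06, limma). Cited2, a transcriptional coregulator, was at -1.38 (adjusted p = 4.45e-05, limma).

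Retinoic acid genes were followed because this signal is made in mesothelium and acts with Wt1 and Gata factors there. Of 14 measured of 15 listed, 2 were higher and 2 lower in Type 1, with a median of -0.21. This too is near the share of all genes (13.4% higher, 10.5% lower). Aldh1a1, an enzyme of retinoic acid synthesis, was higher by 4.02 ± 0.68 (adjusted p = 0.000115, limma). Aldh1a2, its relative in the same list and also in that of mesothelial markers, was measured and did not pass. Cyp26a1, which breaks retinoic acid down, averaged 7.80 ± 0.64 in Type 1, 4.25 ± 0.20 in Other, 4.20 ± 0.04 in Type 2 and 4.31 ± 0.14 in Type 3 (3.54 ± 0.15, adjusted p = 4.97e-14, limma). Dhrs3, which turns retinal back to retinol, was at -1.92 (adjusted p = 0.000223), and the receptor Rxra at -1.23 (adjusted p = 3.26e-06, limma).

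Of 14 measured genes among 16 reported as Wt1 targets, 5 were higher and 3 lower in Type 1, with a median of 0.61, beside 13.4% higher and 10.5% lower over all genes. Podxl, podocalyxin, a surface sialomucin of podocytes and mesothelium, averaged 9.39 ± 0.41 in Type 1, 4.14 ± 0.23 in Other, 4.03 ± 0.07 in Type 2 and 4.07 ± 0.18 in Type 3 (5.31 ± 0.13, adjusted p = 3.97e-18, limma). The vitamin D receptor Vdr was at -2.45 (adjusted p = 1.53e-05), Snai1, a repressor of epithelial genes, at -1.71 (adjusted p = 0.002), and the growth factor receptor Pdgfra at -1.52 (adjusted p = 0.0427, limma). Podxl also stands in the list of mesothelial markers, and Pdgfra in that of preadipocyte markers. In the 11 PGF lines, 2 of these 14 were higher and 2 lower. In the same fit the mesoderm regulators had 5 higher and 3 lower, the relatives and partners 3 and 2, and the retinoic acid genes 2 and 2. Over all genes, 8.66% were higher and 6.43% lower in that fit.

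**Figure D5:**
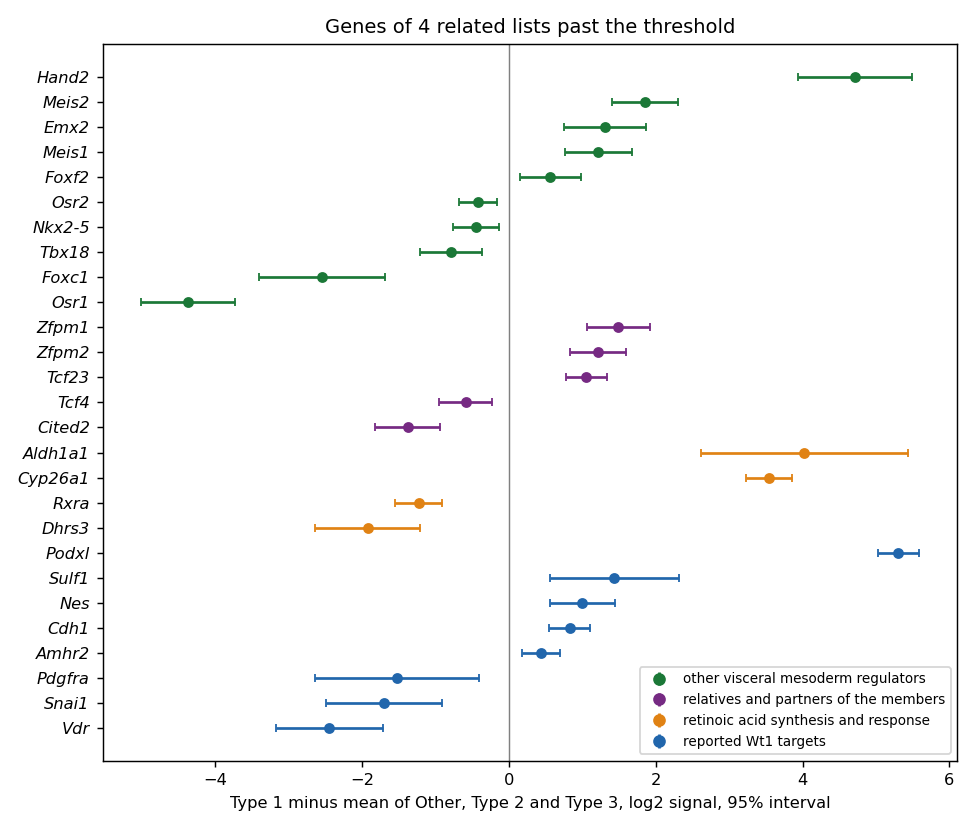
Difference of Type 1 from the mean of the other groups in log2 signal (horizontal axis, 95% intervals) for each gene past the threshold in 4 lists: other visceral mesoderm regulators (green), relatives and partners of the members (purple), retinoic acid synthesis and response (orange) and reported Wt1 targets (blue). Hand2 and Osr1 lie at 4.72 and -4.37, on opposite sides of 0 within 1 list.

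Most mesothelial markers were higher in the same lines as Wt1, Bnc1 and Gata6. Of 16 mesothelial markers, 11 were higher and 2 lower in Type 1, with a median of 3.70, where 13.4% of all genes were higher and 10.5% lower. The largest differences were those of the keratin Krt18 (8.07), Lrrn4 (8.00) and the uroplakins Upk3b (7.75) and Upk1b (6.35). The 2 lower markers were Efemp1 (-2.03) and Calb2 (-0.31), while Krt19, Pdpn and Aldh1a2 did not pass. Krt8 was not high in every Type 1 line, with a lowest value of 5.17 there against a highest of 5.18 in Other lines. The mean signal of the 16 markers ran from 7.76 to 9.58 in Type 1 lines and from 5.14 to 6.02 in Other. It ran from 5.32 to 5.42 in Type 2 and from 5.02 to 5.44 in Type 3, and 6.02 was that of Other 6. Within Type 1 it was lowest in Type_1 2, at 7.76, a line with signals of 10.61 for Wt1, 10.41 for Bnc1 and 11.05 for Gata6, all far above the lines outside Type 1.

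The label preadipocyte was checked in the same way. Of 12 measured preadipocyte markers of 13 listed, 2 were higher and 7 lower in Type 1, with a median of -2.01. The early fat cell factors Ebf1 (-4.96), Ebf2 (-3.98) and Pparg (-3.31) were lower, and the surface protein Cd34 was higher (3.07, adjusted p = 0.0469, limma). Cd34 overlapped between groups, from 8.92 to 10.17 in Type 1 with highest values of 10.85 in Type 3 and 10.66 in Other. Against the other PGF lines 0 of the 12 were higher and 6 lower, where 8.66% of all genes were higher and 6.43% lower. The mean of the list ran from 7.24 to 7.35 in Type 1 lines, from 7.66 to 9.36 in Other, from 8.15 to 8.81 in Type 2 and from 8.43 to 9.67 in Type 3, so all 3 Type 1 lines lay below every other line. Genes of the remaining lists passed the threshold in Type 1 too, where 13.4% of all genes were higher and 10.5% lower. Of 8 macrophage and leukocyte markers 0 were higher and 2 lower, the receptor Csf1r (-2.50) and the lysozyme Lyz2 (-0.47). Of 8 endothelial markers 1 was higher, the receptor Kdr (2.00), and 2 were lower, the receptor Tek (-2.40) and the claudin Cldn5 (-0.21). Of 7 epithelial markers 2 were higher, the keratin Krt14 (1.57) and the cadherin Cdh1 (0.83), and 0 lower. Of 6 skeletal muscle markers 0 were higher and 1 was lower, the muscle factor Myog (-0.24). Their mean signals in Type 1 lines ran from 4.98 to 5.06 for the macrophage, 4.11 to 4.33 for the endothelial, 4.40 to 4.92 for the epithelial and 4.17 to 4.34 for the muscle list. The part of any of these cell types in the members' levels was not tested.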

How the data were processed

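The authors deposited 1 table of log2 values for 23 Affymetrix arrays, made from 250 ng of total RNA per line, per the labels' protocols. The log2 scale was read from the values. MAS5 is the software named in the submitters' processing notes, without a version. How the arrays were summarised and scaled was not stated there, so the values were used as deposited. Pairs of arrays correlated at 0.937 to 0.992, and 0 pairs were identical. The number of arrays limits the precision, and no detection calls were used.

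Of the 45101 probe sets, 64 were controls, 34945 of the rest had 1 gene symbol in the platform annotation, 932 had several and 9160 none. By Entrez ID 34741 matched the RefSeq gene table of GRCm38.p6, which changed 0 symbols. No filter on low values was used, so that all 7 genes were tested. A filter that asks for 3 or more lines above the table's median keeps 12307 genes and drops Tcf21.

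Tests used limma 3.58.1 (lmFit, eBayes, Benjamini-Hochberg) in R 4.3.3. Python 3.11.15 with pandas 2.3.3, numpy 2.4.6 and matplotlib 3.10.9 did the rest. Group comes from the type label and depot from the clone name. The 23 lines shared 1 estimate of spread, and the PGF comparison used 11 lines. Tested on simulated data over 18193 genes, a 2-fold change was recovered for 92% of changed genes in Type 1 minus the mean of the other groups, 81% in Type 1 minus the other PGF lines, 89% in Type 2 minus Type 3, 92% in Other minus the mean of Types 2 and 3 and 94% in PGF minus SCF. The changed genes were drawn at random and the noise was independent and normal, so these rates do not describe each member. Many genes were changed at once, some of them 4-fold, which eases the adjusted threshold. In the real data 0% of all genes passed in PGF minus SCF and in Other minus the mean of Types 2 and 3. A lone 2-fold change there would face a stricter threshold, so these rates overstate what those fits could find. For Bnc1 the 95% interval of PGF minus SCF, -0.46 to 1.60, still held a 2-fold change. The members and gene lists were chosen with earlier results of these data known. From each list up to 4 genes with the largest difference past the threshold are named, and for each member the 3 genes with the highest r. A few further genes are named where they went the other way or did not pass.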

Additional observations from a re-analysis of the deposited data

Results flagged for a closer look

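One value of a member lay far from the rest of its group, judged by its gap to the next line as a share of the group's range (Dixon's 95% limits). Gata4 was 5.86 in Other 6, where the next of the 7 Other lines was 4.84 and the lowest 4.47, a gap of 0.729 of the range. Such a gap was looked for in 21 combinations of a member and a group of at least 4 lines, and 1 was found. Chance gives about 1 in 20. The second Gata4 probe set read 4.04 in Other 6, below 4.11 in Type_3 2. Other 6 is the PGF line that was also the second of the 20 lines outside Type 1 in Wt1 and in Bnc1, and its mean over the mesothelial markers was 6.02. In Gata6, which also separated Type 1, it ranked only 11 of those 20.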

How the results depend on the processing

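Wt1, Bnc1 and Gata6 stayed higher in Type 1 and past the threshold under every alternative run, in both Type 1 comparisons. For Wt1 the run with the filter is no support, as Wt1 met it in 4 lines, only 1 of them outside Type 1. The largest adjusted p over the refits without 1 line was 2.15e-11 for Wt1, 1.2e-05 for Bnc1 and 8.61e-10 for Gata6 over 23 lines, and 1.76e-05, 0.000525 and 8.63e-08 over the PGF lines. The count of 4 members past the threshold was 3 with depot in the model or with the mean of probe sets, 5 with the filter or quantile normalization and 6 with array weights. Gata4 passed with the filter (adjusted p = 0.0466), which it met in 3 lines, only 1 of them outside Type 1, so this call is no support. It also passed with quantile normalization (0.53, adjusted p = 0.0378) and array weights (0.31, adjusted p = 0.0482), and Nr2f1 with array weights (0.88, adjusted p = 0.0142, all limma).

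Over all genes, the 4339 calls of Type 1 minus the mean of the other groups became 7667 with every probe set tested, which tests more features, 7183 with array weights, and 2735 to 4607 without 1 line, the lowest without Type_1 1. The 2744 calls against the other PGF lines became 4752, 5890, and 1683 to 3090, with 1683 without Type_1 1 and 1729 without Type_1 3. The 9 calls of Type 2 minus Type 3 became 1 with the mean of probe sets, 47 with the filter, 540 with array weights, 44 with depot, 3 with the clone-name number, 400 with the 16 lines of Types 1 to 3, 1 without the Type 1 lines, and 0 to 141 without 1 line. For Other minus Types 2 and 3, the 0 became 1 without the Type 1 lines and 0 to 1 without 1 line (1 without Type_1 2). For depot, the 0 became 19 within Other. The cause was not tested.

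Values that changed sign were all far from the threshold. For Type 1, Tcf21 was -0.027 with array weights and -0.012 to 0.039 without 1 line, and Nr2f1 against the other PGF lines was -0.065 to 0.60. In Type 2 minus Type 3, Gata4 was -0.11 with the mean of probe sets, -0.037 with array weights and -0.050 to 0.052 without 1 line, and Nr2f2 was -0.038 with depot, -0.036 with the clone-name number and -0.16 to 0.22 without 1 line. In Other minus Types 2 and 3 without 1 line, Wt1 was -0.033 to 0.25, Gata4 -0.089 to 0.14, Bnc1 -0.057 to 0.53, Nr2f1 -0.20 to 0.077 and Nr2f2 -0.24 to 0.056. For depot, Gata4 was -0.018 with array weights, -0.16 within Type 3 and -0.036 to 0.17 without 1 line, and within Other Nr2f1 was -0.046 and Nr2f2 0.18. For the differentiation score, Gata4 was -0.053 and Bnc1 -0.59 with no group in the model, and Gata6 -0.11 to 0.058 without 1 line. For the acidification score, Wt1 was -0.071 with array weights and -0.089 to 0.14 without 1 line, Nr2f2 0.047 with array weights, 0.026 without the Type 1 lines and -0.072 to 0.088 without 1 line, Bnc1 0.22 with no group, and Gata6 -0.0029 to 0.066 without 1 line. Another scaling moved the median of all genes by at most 0.022.

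No paired analysis was possible because the labels give no replicate numbers. The offset for linear values was not run, as the values are log2. Signals below the table's median, as for Tcf21 in all lines and Wt1 and Gata4 in most, limit what small differences can show.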
